A study of Mus musculus with 2 samples.

Results

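The genes described here encode the enzymes that write and erase DNA methylation: the 3 DNA methyltransferases Dnmt1, Dnmt3a and Dnmt3b and the 3 TET dioxygenases Tet1, Tet2 and Tet3. CpG methylation was read in the mouse hippocampus at cytosines inside each gene and 5 kb on each side, in the mm9 build. A cytosine was used where at least 10 reads gave a C or T call in each of the libraries. This left 965 cytosines in the 6 gene spans, of 2312276 in the whole series. There were 132 in Dnmt1, 262 in Dnmt3a, 108 in Dnmt3b, 70 in Tet1, 156 in Tet2 and 237 in Tet3. Within the genes, cytosines were taken by position and coverage alone, but the genes were chosen with earlier results of these data known.

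There were 2 libraries of C57BL/6 mouse hippocampus, each made by target enrichment and bisulfite conversion (SureSelect Methyl-Seq). The ATO library came from offspring given 5000 ppb arsenic trioxide (ATO) in drinking water, starting with the parent generation before mating, lasting through lactation and going on after weaning. The control library came from a mouse or mice with no treatment. The sources used here give neither age nor whether a library holds 1 animal or a pool. With 1 library per group there is no replicate, and the two-sided Fisher's exact tests given below compare these 2 libraries and not the conditions. The ATO library held 147924810 calls and the control library 135987272. In the 6 spans the median coverage was 42 reads in the ATO library and 35 in the control library. Reads of neighbouring cytosines share fragments, and intervals and tests cover counting error only. The libraries are whole tissue, so a change within a cell type and a change in the mix of cell types cannot be told apart.

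As background, DNMT1 copies existing methylation onto the newly made strand after replication. DNMT3A and DNMT3B set methylation at new sites, and DNMT3A is the main one of the pair in neurons after birth. The TET enzymes oxidise methylcytosine to hydroxymethylcytosine, a first step of active demethylation, and brain DNA is rich in this base. Bisulfite sequencing reads methylcytosine and hydroxymethylcytosine alike. Promoters of such widely used genes commonly lie in CpG islands, stretches dense in CpGs that are usually free of methylation. The borders of an island are called its shores, and the transcribed body of a gene is commonly methylated.

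No mm9 gene annotation was used, so start sites were placed by sequence. RefSeq promoter sequences of the 6 genes (GRCm38.p6) were laid over the CpG positions listed in the files, and the spacing of CpGs fixed 1 place for 9 of 10. The Dnmt1 window with 2 CpGs could not be placed. The Tet1 start was placed 2072 bp beyond the edge of its span, so no cytosine of that promoter is a member. The following sequences show, for 5 genes, the 250 bases before the outermost placed start, 5′ to 3′ on the strand of the gene. They are shown because the promoter levels below were read in them. Capitals mark CpGs with an analysed cytosine.

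Dnmt1 (mm9 chr9:20757424-20757673, minus strand): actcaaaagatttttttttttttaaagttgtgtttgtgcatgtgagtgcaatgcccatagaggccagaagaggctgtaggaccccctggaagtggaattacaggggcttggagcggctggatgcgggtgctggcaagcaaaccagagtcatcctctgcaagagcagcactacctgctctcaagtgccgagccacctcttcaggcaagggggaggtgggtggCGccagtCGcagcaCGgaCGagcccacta

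Dnmt3b (mm9 chr2:153474935-153475184, plus strand): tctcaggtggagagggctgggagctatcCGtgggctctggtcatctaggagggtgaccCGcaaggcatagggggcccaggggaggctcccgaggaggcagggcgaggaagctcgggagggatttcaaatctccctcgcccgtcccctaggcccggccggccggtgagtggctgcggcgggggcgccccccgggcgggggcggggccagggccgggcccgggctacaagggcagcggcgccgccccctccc

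Tet2 (mm9 chr3:133207355-133207604, minus strand): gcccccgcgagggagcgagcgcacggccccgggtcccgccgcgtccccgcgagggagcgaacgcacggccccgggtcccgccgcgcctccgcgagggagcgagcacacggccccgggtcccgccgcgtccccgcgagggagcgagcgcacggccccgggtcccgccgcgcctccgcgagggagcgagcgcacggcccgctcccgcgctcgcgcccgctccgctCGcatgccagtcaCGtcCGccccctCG

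Tet3 (mm9 chr6:83391673-83391922, minus strand): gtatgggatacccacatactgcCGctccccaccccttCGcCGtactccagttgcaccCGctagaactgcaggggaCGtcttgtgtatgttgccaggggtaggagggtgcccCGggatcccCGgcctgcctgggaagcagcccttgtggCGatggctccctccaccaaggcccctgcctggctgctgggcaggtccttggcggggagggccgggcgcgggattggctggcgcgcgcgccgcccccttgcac

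Tet1, beyond its span (mm9 chr10:62350073-62350322, minus strand): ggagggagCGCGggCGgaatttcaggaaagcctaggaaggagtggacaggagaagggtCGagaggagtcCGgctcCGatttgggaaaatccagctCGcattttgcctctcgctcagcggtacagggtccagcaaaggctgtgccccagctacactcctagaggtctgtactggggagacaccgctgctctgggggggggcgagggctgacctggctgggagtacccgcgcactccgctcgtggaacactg

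Within these bases the CpGs read were nearly unmethylated in Dnmt1, Dnmt3b, Tet2 and Tet3. In the 8 analysed cytosines of the Tet3 sequence the mean level was 1.47% in the ATO library and 1.82% in the control library, and no cytosine was above 11.8% in the ATO library or 10% in the control library. The 4 of Tet2 averaged 0% in the ATO library and 1.92% in the control library. The 4 of Dnmt1 averaged 5.48% in the ATO library and 1.25% in the control library. The 250 bases before the other placed Dnmt1 start, not shown, had 12 analysed cytosines and went the other way, with 0.52% in the ATO library and 3.55% in the control library. Only 2 of 21 CpGs of the Dnmt3b sequence were analysed, with means of 5.88% in the ATO library and 5.02% in the control library. The Tet1 sequence was more methylated, at 25.6% in the ATO library and 15.5% in the control library over 7 cytosines. Only 7 of its 15 CpGs were analysed, all at the upstream edge of the island that holds the start. All listed cytosines of the Tet1 promoter window gave 17.5% in the ATO library and 14.4% in the control library. The whole island averaged 6.10% in the ATO library and 3.91% in the control library. The 38 CpGs in the 250 bases before the first Dnmt3a start had no analysed cytosine, since no cytosine of that promoter window was read more than 2 times in the ATO library and none was listed in the control library.

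Islands were defined from CpG density alone, as stretches of at least 300 bp with at least 10 listed CpGs per 200 bp. A promoter island holds a placed start, and a shore reaches 2000 bp from an island. The body is the rest of the gene between the ends given by the span, which includes DNA upstream of the placed start in Dnmt1 and Tet3. The flank is what is left in the outer 5 kb.

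The promoter islands of Dnmt1, Dnmt3b, Tet2 and Tet3 were low in methylation, and the internal promoter island of Dnmt3a was partly methylated. The mean over the 177 promoter island cytosines was 9.41% in the ATO library and 10.6% in the control library, a difference of -1.20 points (ATO minus control, SD between cytosines 8.28). In Dnmt1, the maintenance enzyme, the promoter island (chr9:20756968-20757560) averaged 2.17% in the ATO library and 3.49% in the control library over 34 cytosines. In Tet2 (chr3:133207052-133208295) the means were 2.23% in the ATO library and 1.67% in the control library over 44 cytosines. In Tet3 (chr6:83390834-83391900) they were 1.20% in the ATO library and 2.86% in the control library over 14 cytosines. These 3 islands lie among the 69.4% of islands in the series with a mean level under 10%, whose differences ran from -2.11 to 1.92 points between the 5th and 95th percentiles. Pooled over all calls, and with calls divided for shared fragments, the exact 95% interval of the Tet2 island was 0.369 to 10.5% in the ATO library and 0.364 to 10.4% in the control library. A difference of a few points was not detectable at this depth. The island cytosine of highest mean level was chr9:20757438 in Dnmt1, with 16.2% in the ATO library and 5% in the control library. In Tet2 it was chr3:133208269, at the upstream edge, with 14.5% in the ATO library and 7.59% in the control library.

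Dnmt3b, the de novo enzyme known for its role in early development, had an island whose downstream end was partly methylated. Its promoter island (chr2:153474892-153476352) averaged 7.68% in the ATO library and 9.18% in the control library over 46 cytosines. In steps of 500 bp downstream of the start, the level was 3.02% in the ATO library and 2.23% in the control library at chr2:153475501-153476000. The next bin had 21.1% in the ATO library and 28.6% in the control library, and the one after it 68.0% in the ATO library and 70.8% in the control library. The bin at chr2:153477001-153477500 had 73.7% in the ATO library and 85.9% in the control library. All 5 cytosines of that last bin were lower in the ATO library, with a difference of -12.2 points that did not pass the test (Fisher's exact test, adjusted p = 0.898). The island thus gave way to methylated DNA within about the same distance in both libraries. The island cytosine with the highest mean level, chr2:153476273, read 45.0% (exact 95% interval 32.1 to 58.4) in the ATO library and 66.7% (47.2 to 82.7) in the control library.

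Dnmt3a, the main de novo enzyme of neurons, had 2 promoter islands, and only the second could be read. The first, at the upstream starts (chr12:3806236-3807251), held 138 listed cytosines and no analysed one. The island next to it downstream (chr12:3807559-3808441) was unmethylated, with 1.57% in the ATO library and 1.26% in the control library over 32 cytosines. The second promoter island (chr12:3891049-3892164) lies 84069 bp downstream, around an internal start in the RefSeq table. In mouse a shorter form of the enzyme, Dnmt3a2, is known to be made from an internal promoter. This island was partly methylated, with a mean of 28.8% (SD between cytosines 13.6) in the ATO library and 31.4% (SD 18.9) in the control library over 39 cytosines. Of these, 15 were higher and 24 lower in the ATO library, and none was called. Its cytosine with the highest mean level, chr12:3891070, read 48.1% in the ATO library and 70.0% in the control library. None of the 39 cytosines lay in the promoter window at the internal start. All listed cytosines of that window, each read at most 7 times, were lower, at 7.69% in the ATO library and 6.56% in the control library. In the series 19.1% of islands had a mean level between 10 and 80%, the class that holds the internal Dnmt3a island in both libraries.

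The remaining islands of Dnmt3a and the island inside Tet1 were low or partly methylated. Inside Dnmt3a, the island at chr12:3871615-3872011 averaged 6.92% in the ATO library and 6.99% in the control library. Its neighbour at chr12:3871065-3871409 averaged 21.7% in the ATO library and 19.8% in the control library over 12 cytosines. Tet1 is the TET enzyme best known from embryonic stem cells. The 1 island inside its span (chr10:62328257-62328731) lies 21341 bp downstream of the placed start. It averaged 1.56% in the ATO library and 3.51% in the control library, and all 20 cytosines were under 10% in both. The highest, chr10:62328581, read 5.06% in the ATO library and 6.98% in the control library.

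Tet3, the TET enzyme known to be abundant in neurons, carried islands of low and of high methylation. Beside its unmethylated promoter island, 2 islands far downstream were almost fully methylated. The island at chr6:83354420-83354833 averaged 89.5% (SD 7.74) in the ATO library and 95.5% (SD 3.30) in the control library over 21 cytosines, of which 15 were lower in the ATO library and 5 higher. The difference was -6.00 points, and no cytosine of it was called. Its edge cytosine chr6:83354421 was fully methylated, at 28 of 28 reads in the ATO library and 33 of 33 in the control library. The island at chr6:83317957-83318522 averaged 91.2% in the ATO library and 92.5% in the control library over 39 cytosines, with 16 higher and 17 lower. Only 11.5% of islands in the series were above 80%, with a median difference of -0.65 points and differences from -9.04 to 5.76 points between the 5th and 95th percentiles. A pair of upstream islands were low. The island at chr6:83405778-83406517 averaged 3.62% in the ATO library and 2.28% in the control library over 6 cytosines, and that at chr6:83406726-83407377 averaged 7.05% in the ATO library and 5.15% in the control library over 24.

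**Figure D1:**
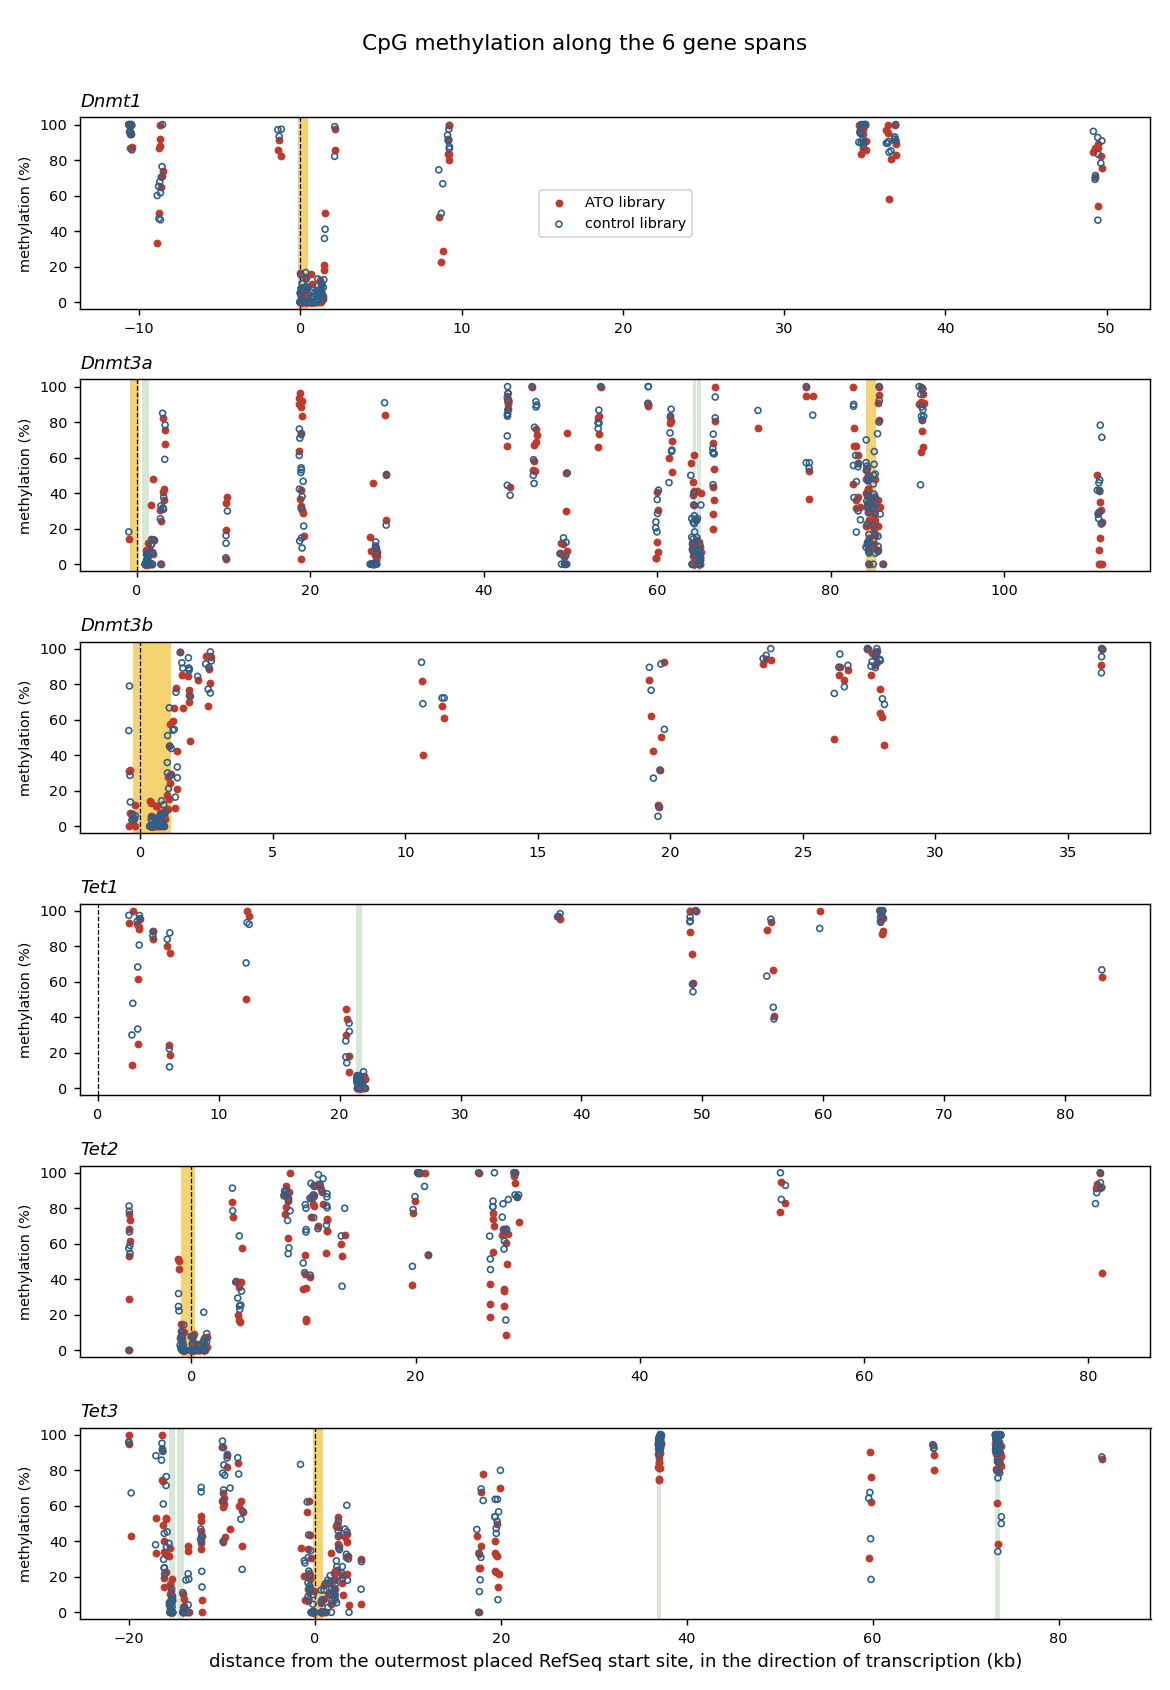
Methylation level (%) of each analysed cytosine against its distance (kb) from the outermost placed start of the gene, with filled points for the ATO library and open points for the control library; yellow bands are promoter islands and green bands other islands. Levels drop near 0 at the promoter islands of Dnmt1, Tet2 and Tet3, stay near 30% in the internal Dnmt3a island 84 kb downstream, and lie near 90% in the 2 downstream islands of Tet3.

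The shores differed more between genes than between libraries. The mean over 231 shore cytosines was 31.0% in the ATO library and 31.7% in the control library, a difference of -0.66 points, against -0.77 points over all 342533 shore cytosines of the series. The Dnmt3b shore was the most methylated, at 60.1% in the ATO library and 67.7% in the control library over 26 cytosines, with 16 lower and 10 higher. With every call weighted alike it read 71.8% in the ATO library and 75.2% in the control library, a difference of -3.42 points, and at a coverage minimum of 20 the difference was -4.03 points. The shores of Dnmt3a averaged 40.9% in the ATO library and 39.2% in the control library, and those of Tet3 31.2% in the ATO library and 31.9% in the control library. The shore of Tet1 averaged 22.03% in the ATO library and 22.3% in the control library over 12 cytosines. The Dnmt1 shores averaged 15.05% in the ATO library and 16.1% in the control library. The Tet2 shore was the least methylated, at 7.98% in the ATO library and 5.60% in the control library over 23 cytosines, or 15.6% in the ATO library and 9.60% in the control library with every call weighted alike. It was higher in the ATO library at its upstream edge. There 3 cytosines just beyond the island, chr3:133208460, chr3:133208498 and chr3:133208504, read 45.5%, 50.5% and 51.6% in the ATO library, against 22.2%, 31.9% and 24.7% in the control library. The last of them was called (Fisher's exact test, adjusted p = 0.0113).

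The differences in gene bodies were not alike among the genes. Over 326 body cytosines the mean was 64.1% in the ATO library and 66.9% in the control library, a difference of -2.79 points (SD between cytosines 16.1). All cytosines of the series outside islands and shores, 907853 in number, differed by -2.62 points. The Tet2 body had the largest difference of the 6, with 66.8% (SD 26.0) in the ATO library and 74.9% (SD 21.5) in the control library over 82 cytosines, or -8.15 points. The ATO library was lower at 57 of them (69.5%) and higher at 19 (23.2%). The series outside islands and shores had 53.9% lower and 39.3% higher. The Tet2 body includes 8 cytosines at chr3:133179236-133179615 with a mean of -19.1 points and 6 at chr3:133197116-133197373 with -31.6 points. It also includes 7 at chr3:133198551-133198895 with a mean of 9.85 points. The Tet3 body averaged 46.7% in the ATO library and 51.9% in the control library over 53 cytosines, with 36 lower and 16 higher. This body includes DNA upstream of the placed start. There, 10 cytosines at chr6:83401086-83401630 averaged 66.0% in the ATO library and 77.5% in the control library, with 8 lower and 2 higher. The Dnmt3b body averaged 75.2% in the ATO library and 80.2% in the control library over 36 cytosines, with 23 lower and 9 higher. The Dnmt1 body averaged 85.5% in the ATO library and 89.96% in the control library over 31 cytosines, with 19 lower and 11 higher.

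The mean differences of the Dnmt3a and Tet1 bodies went the other way, with medians of 0 points in Dnmt3a and 0.45 points in Tet1. The Dnmt3a body averaged 54.6% (SD 34.8) in the ATO library and 51.4% (SD 35.4) in the control library over 99 cytosines, with 49 higher and 42 lower. The Tet1 body averaged 87.1% in the ATO library and 85.4% in the control library over 25 cytosines, with 13 higher and 9 lower. Of the Dnmt3a body, 15 cytosines at chr12:3825714-3826224 averaged 58.0% in the ATO library and 43.8% in the control library, with 10 higher and 5 lower. The Tet1 body includes chr10:62294747, the 1 called cytosine of the gene, with a gain of 26.2 points. With every call weighted alike, so that deep cytosines count for more, the Tet3 body read 48.2% in the ATO library and 48.9% in the control library, the Tet1 body 83.7% (ATO) and 76.6% (control), and the Dnmt3a body 59.7% (ATO) and 59.2% (control). With islands taken from 8 listed CpGs per 200 bp, 9 body cytosines were left in Dnmt1, with a difference of -11.1 points, and with a coverage minimum of 5 the Dnmt3b body differed by -2.73 points. By family, the 160 body cytosines of the 3 Tet genes averaged 63.3% in the ATO library and 68.9% in the control library, with 102 lower and 48 higher. The 166 of the 3 Dnmt genes averaged 64.8% in the ATO library and 64.9% in the control library, with 84 lower and 69 higher. The Dnmt mean combines lower levels in Dnmt1 and Dnmt3b with higher levels in Dnmt3a. With every call weighted alike, the Tet bodies read 58.7% (ATO) and 62.8% (control) and the Dnmt bodies 68.6% (ATO) and 70.4% (control). The shares lower were 63.75% in the Tet bodies and 50.6% in the Dnmt bodies, against 53.9% of the series outside islands and shores. Depth differed too, since the median coverage of the Tet2 body was 63.5 reads in the ATO library and 53.5 in the control library, and that of the Dnmt3a body 40 reads in the ATO library and 35 in the control library. The part of depth in these differences was not tested.

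**Figure D2:**
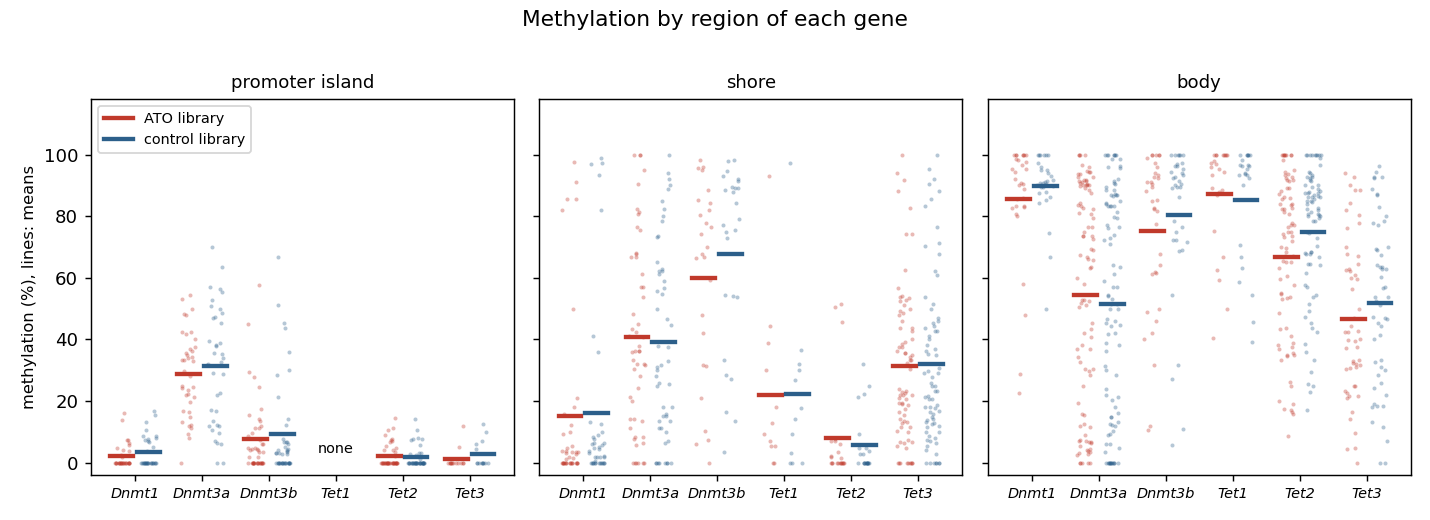
Methylation level (%) of single cytosines (points) and their means (lines) in the promoter islands, shores and bodies of the 6 genes, with the ATO library left of the control library for each gene. The Tet2 body means are 66.8% in the ATO library and 74.9% in the control library, the promoter island of Dnmt3a stands apart at 28.8% (ATO) and 31.4% (control), and Tet1 has no promoter island inside its span.

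Since percent levels are bounded, genes were also compared at cytosines of a mean level between 20 and 80% in the 2 libraries, in bodies and elsewhere alike. Dnmt3b differed there by -11.3 points (31 cytosines) and Tet2 by -9.81 points (53 cytosines). In Tet2 38 of the 53 were lower in the ATO library, 71.7%, against 58.4% of such cytosines in the series. The series differed by -3.76 points, Tet3 by -3.66 points (80 cytosines) and Dnmt1 by -2.53 points (16 cytosines). Dnmt3a was at 2.09 points (107 cytosines) and Tet1 at 4.75 points (17 cytosines). The SD of single cytosines was between 18.1 and 24.9 points in every one of the 6 genes and 19.5 in the series. The differences between genes are given as a description, and no test was made of them.

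Over whole spans, the 965 cytosines averaged 41.2% in the ATO library and 42.9% in the control library, a difference of -1.65 points (SD 13.4), beside -1.28 points over all cytosines of the series. Of them, 462 (47.9%) were lower in the ATO library and 341 higher, against 43.8% and 37.2% in the series. The 3 Dnmt genes together had 38.8% in the ATO library and 39.8% in the control library. The 3 Tet genes had 43.9% in the ATO library and 46.3% in the control library.

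Single cytosines were called at a difference of at least 25 points and an adjusted p under 0.05 (Fisher's exact test, Benjamini-Hochberg adjustment over all cytosines of the series). In the 6 genes 29 of 965 cytosines were called, 3.01%, against a background of 2.65% in the series, so the share called was near the background. Of the 29, 18 were lower in the ATO library and 11 higher, beside 1.73% lower and 0.916% higher of all cytosines of the series. Tet2 had 9 called of 156 (5.77%), Dnmt3a 10 of 262 (3.82%), Dnmt3b 3 of 108 and Dnmt1 3 of 132. Tet3 had 3 of 237 (1.27%) and Tet1 1 of 70. No island cytosine was called, against 0.556% of island cytosines in the series. Of shore cytosines 4 of 231 were called (1.73%), against 3.41% in the series. In bodies 21 of 326 were called (6.44%) and in flanks 4 of 61 (6.56%), against 4.81% of cytosines of the series outside islands and shores. The order of the classes was thus that of the series. The called cytosines formed 19 clusters when those within 300 bp of each other were joined, and 12 clusters held 1 call. No call was left, against 0.0828% of the series, when counts were divided by 2.77, the dispersion of a CpG's strands inside 1 library. Calls within a cluster can come from the same reads, so the clusters are the nearer count of separate places.

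**Figure D3:**
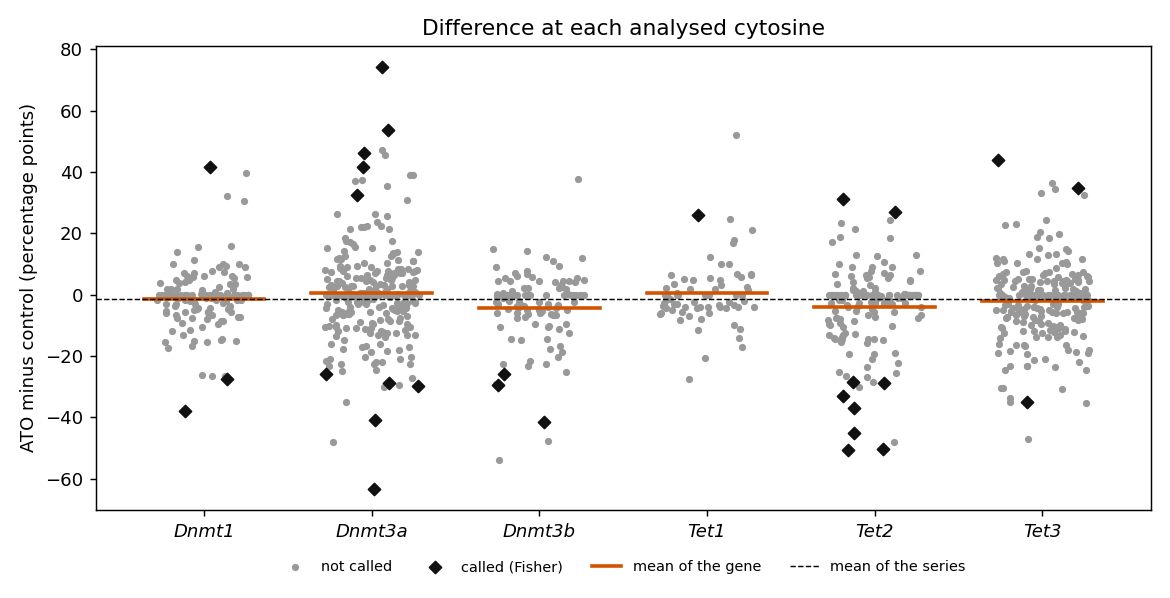
Difference in methylation (ATO minus control, percentage points) at each of the 965 analysed cytosines by gene, with called cytosines as diamonds, the mean of each gene as a line and the mean of the series, -1.28 points, as a dashed line. Called losses lie mostly in Tet2 and Dnmt3a, and the called cytosines of Dnmt3a lie on both sides of 0.

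Tet2, the TET enzyme best known from blood cell cancers, held the 1 called bin among the 71 bins of 500 bp in the 6 genes. That is 1.41%, against 1.80% of bins in the series (Fisher's exact test on calls divided for shared fragments, adjusted p under 0.05 and at least 20 points). In the series 1.16% of bins were called lower and 0.638% higher in the ATO library. The bin chr3:133179001-133179500 lies 28104 bp downstream of the start, in the body. It read 35.01% (exact 95% interval 26.7 to 43.8) in the ATO library and 59.1% (49.5 to 68.9) in the control library, at mean coverages of 111 reads in the ATO library and 90.6 in the control library (adjusted p = 0.017, Fisher's exact test). All 7 of its cytosines were lower in the ATO library. From upstream to downstream they read 33.3%, 34.8%, 24.7%, 8.57%, 60.5%, 48.6% and 65.6% in the ATO library. The same cytosines read 57.0%, 67.6%, 61.5%, 17.05%, 68.3%, 67.9% and 84.9% in the control library. The largest losses were at chr3:133179419 (-36.8 points) and chr3:133179429 (-32.9 points), both of them called cytosines. No bin of the 6 genes was called with bins of 200 bp or with at least 10 cytosines a bin, a number this bin does not reach.

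A second place in the Tet2 body had a larger difference at lower depth. The bin chr3:133197001-133197500, about 10 kb downstream of the start, read 33.5% (19.5 to 48.0) in the ATO library and 61.5% (43.5 to 76.9) in the control library. It was not called (adjusted p = 0.297, Fisher's exact test), at a mean coverage of 45.8 reads in the ATO library and 36.3 in the control library. All 6 cytosines were lower in the ATO library, and 3 within 15 bp were called. These read 17.5%, 34.9% and 16.3% in the ATO library, against 68%, 80% and 66.7% in the control library. The first of them, chr3:133197116, had the largest called loss of the gene, -50.5 points over 40 reads in the ATO library and 25 in the control library (adjusted p = 0.00384, Fisher's exact test).

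Other Tet2 cytosines were mixed. The best covered call, chr3:133203076, read 35.6% of 292 reads in the ATO library and 64.4% of 236 reads in the control library (adjusted p = 3.35e-08, Fisher's exact test). Its neighbours at 13 and 42 bp read 16.9% and 15.9% in the ATO library, against 25% and 23.0% in the control library. The 6 analysed cytosines at chr3:133202876-133203211, chr3:133203076 included, averaged 30.7% in the ATO library and 33.4% in the control library. That is a difference of -2.68 points. The ATO level was below the control level at 4 of these 6 cytosines and above it at 2. The largest gain was at chr3:133198643, with 89.0% in the ATO library and 57.7% in the control library, in a bin of 7 cytosines of which 5 were higher. That bin, chr3:133198501-133199000, lies about 1.5 kb from the second place of loss and read 83.6% in the ATO library and 71.4% in the control library, a gain of 12.2 points that was not called. A further call, chr3:133212932 upstream of the gene, read 29.0% in the ATO library and 57.5% in the control library.

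**Figure D4:**
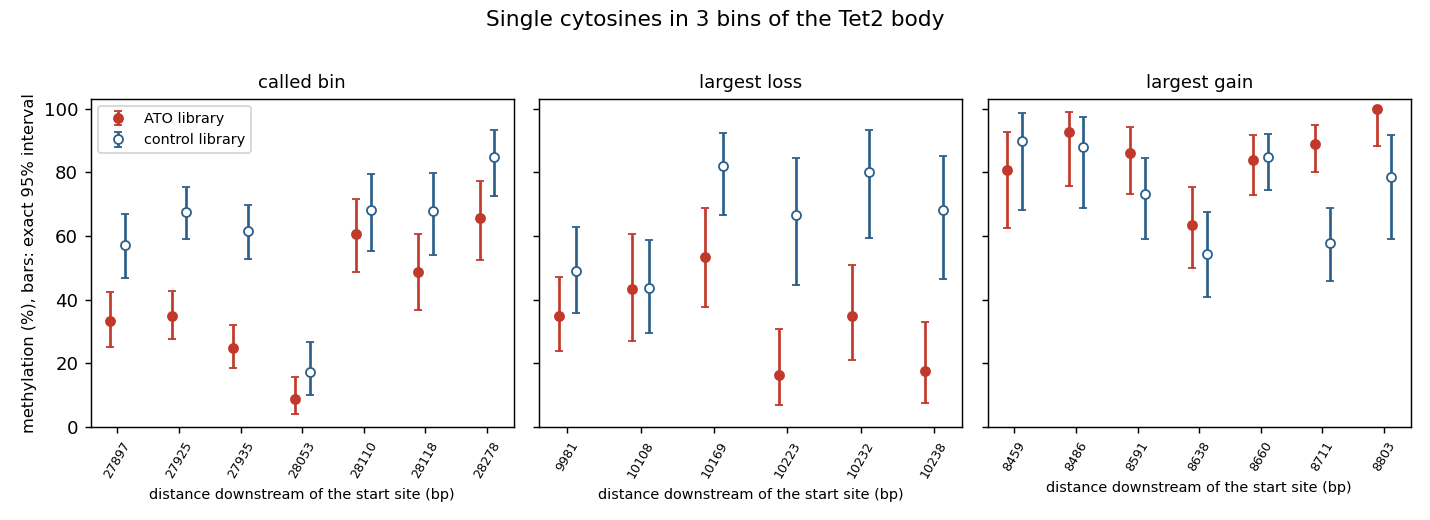
Methylation level (%) with exact 95% intervals of single cytosines in 3 bins of the Tet2 body, ordered by distance (bp) downstream of the start, with the ATO library left of the control library at each cytosine. In the called bin and in the bin of largest loss all cytosines are lower in the ATO library; in the bin of largest gain 5 of 7 are higher.

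Dnmt3a had the most called cytosines, 5 lower and 5 higher, and no called bin. The largest gain of Dnmt3a was at chr12:3826037, with 83.3% in the ATO library and 9.09% in the control library. It was read 24 times in the ATO library and 22 times in the control library (adjusted p = 5.8e-05, Fisher's exact test). The cytosine 2 bp before it read 91.7% in the ATO library and 38.1% in the control library, and chr12:3825714 read 93.8% in the ATO library and 61.2% in the control library. Between them, chr12:3825925 was called in the other direction, at 2.63% in the ATO library and 31.4% in the control library. Over the 15 cytosines of this stretch 10 were higher and 5 lower in the ATO library, with means of 58.0% in the ATO library and 43.8% in the control library. The cytosine chr12:3856433 was also higher, at 51.1% in the ATO library and 4.76% in the control library, in the bin with the largest gain of the gene (24.5% in the ATO library and 8.70% in the control library, not called). The cytosine chr12:3808845, in the shore of the island next to the first starts, read 48.1% in the ATO library and 6.45% in the control library.

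The other called losses of Dnmt3a lay in a shore and beyond the end of the gene. The bin chr12:3873001-3873500 in the shore of the inner islands read 38.1% in the ATO library and 62.4% in the control library, a difference of -24.3 points that was not called (Fisher's exact test, adjusted p = 0.441). In it chr12:3873436 and chr12:3873492 were called, with 43.4% and 36.3% in the ATO library, against 73.2% and 62.2% in the control library. In the downstream flank 8 of 11 cytosines were lower in the ATO library, with a mean of 21.1% in the ATO library and 41.3% in the control library. The largest loss there, chr12:3918052, read 15% of 20 reads in the ATO library and 78.3% of 23 reads in the control library (adjusted p = 0.00318, Fisher's exact test). The call beside it, chr12:3917998, had 0 methylated of 21 reads in the ATO library and 9 of 22 in the control library.

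All 3 called cytosines of Dnmt3b were lower in the ATO library and lay in its body. They were chr2:153494831 (50% in the ATO library and 91.4% in the control library), chr2:153503113 (64.0% in the ATO library and 93.3% in the control library) and chr2:153501376 (49.0% in the ATO library and 74.8% in the control library), each with at least 78 reads in each library. Around chr2:153503113 7 of 8 cytosines were lower. Around chr2:153494831 the other 5 analysed cytosines did not share its loss, as 4 were higher and 1 lower in the ATO library.

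Of the analysed cytosines, 2.27% were called in Dnmt1, 1.43% in Tet1 and 1.27% in Tet3, against 2.65% in the series. In the Dnmt1 body chr9:20748592 and chr9:20748680 were lower, at 28.9% and 22.7% in the ATO library, against 66.7% and 50% in the control library. The 6 analysed cytosines in the bin beside them, chr9:20748001-20748500, were at 80% or more in each library. On the other side chr9:20748839 was also lower, at 47.8% in the ATO library and 74.5% in the control library, and was not called. In the Dnmt1 flank chr9:20766101 was higher, at 88.0% in the ATO library and 46.3% in the control library. In Tet1 the 1 call, chr10:62294747, read 89.3% of 131 reads in the ATO library and 63.2% of 133 reads in the control library. In Tet3 chr6:83331838 and chr6:83331889 were higher, at 62.3% and 76.2% in the ATO library, against 18.5% and 41.4% in the control library. The call chr6:83401369, which lies upstream of the placed Tet3 start, was lower, at 42.3% in the ATO library and 77.2% in the control library.

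The largest bin losses of the other genes were smaller than those of Tet2 and Dnmt3a and were not called. The Tet3 bin chr6:83372001-83372500 read 35.6% (19.9 to 56.1) in the ATO library and 52.7% (32.5 to 70.6) in the control library, and all 7 of its cytosines were lower. The largest losses in Dnmt1 and Tet1 bins were -4.21 and -2.45 points, among 9 bins in Dnmt1 and 4 in Tet1. Dnmt3a had 21 bins, Tet3 17, Tet2 12 and Dnmt3b 8, so these extremes come from unequal numbers. The 2 called cytosines of the Dnmt1 body lay outside these bins, since their 500 bp held fewer than 5 analysed cytosines. The largest gains were 11.3 points in Dnmt1, 7.53 points in Tet3, 1.24 points in Tet1 and 0.79 points in Dnmt3b. Of all 71 bins, 45 were lower in the ATO library and 24 higher, with a median of -1.19 points, beside -0.53 points over the 152175 bins of the series. A difference of at least 20 points was seen in 3 bins, all lower (4.23%), against 3.42% lower and 1.52% higher of the series.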

How the data were processed

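CpG methylation was measured by bisulfite sequencing after target enrichment in 1 ATO and 1 control library. Bismark 0.19.0, Bowtie2, bcl2fastq and the build mm9 are named in the submitters' processing notes; for trimming, duplicate removal and filters the step is not given in the sources used here. Per the file headers, each deposited table gives, for every listed cytosine, a read count (coverage) and the percent of its reads calling C and T. Multiplying coverage by percent C gave methylated counts, whole for 100% of cytosines within the 0.005 points of rounding.

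Cytosines with coverage of at least 10 in both libraries were used, by strand as deposited; 95.2% lay on the reverse strand. Levels in the text are means over cytosines, or summed calls for bins and for single cytosines. Bins of 500 bp needed 5 cytosines, and their sums were divided by the largest number of cytosines in any 300 bp. Fisher's exact tests (two-sided, own code, checked against SciPy 1.17.1 and tested on simulated data) were adjusted over the whole series. The simulated counts were independent between cytosines, with no shared fragments, so they do not give the error rate on these reads. Intervals are exact binomial (Clopper-Pearson). RefSeq promoter windows (250 bases before to 50 after a start) were placed where at least 75% of their CpGs were listed at a single offset within 20 kb of the span. The rule for what is named took all 6 genes, their islands, called bins, the bin and the called cytosine with the largest loss and gain in each gene, and each gene's island cytosine of highest mean level; other called cytosines, cytosines beside a call and bins at the edge of an island were added after their values were seen. Genes and lists were chosen with earlier results of these data known. Other genes of the pathway were not analysed here, since no mm9 annotation was used.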

Additional observations from a re-analysis of the deposited data

How the results depend on the processing

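No paired analysis was possible because each group has 1 library, and for the same reason no library could be left out. The mean difference over the 6 spans, -1.65 points, stayed within its counting interval under all 4 alternatives. Of 168 mean differences of genes and regions under alternatives, 152 kept their sign and 3 moved beyond their counting interval. These were the Dnmt1 body at -11.1 points with 8 listed CpGs per 200 bp (9 cytosines left), and, with every call weighted alike, the Tet1 body at 7.05 points and the Tet3 body at -0.64 points. Part of the 168 could not differ from the reported value. Dnmt1, Dnmt3a, Tet1 and Tet2 had no analysed forward-strand cytosine, and the width of a shore does not alter an island. The Tet2 body lay between -8.94 and -7.59 points and the Dnmt3b body between -6.40 and -2.73 points. The Tet2 body kept the same 82 cytosines with the reverse strand only and with 8 or 12 listed CpGs per 200 bp. The 16 sign changes were in small differences of Dnmt3a, Tet1, Tet3, Dnmt1 and Dnmt3b islands, shores and whole spans, whose reported values lay between -2.58 and 1.65 points. Called cytosines numbered 18 at an adjusted p under 0.01, 19 at 30 points and 0 with counts divided for the spread between strands, where 0.0828% of the series was called; that division lowers the read number. Called bins numbered 0 with 200-bp bins, 0 with at least 10 cytosines a bin (23 bins left) and 3 with all calls counted. The cause of the other changes was not tested.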

Other observations

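The Tet1 promoter lies just beyond the span and outside the members. Its island (chr10:62349252-62350314) averaged 6.10% in the ATO library and 3.91% in the control library over 48 cytosines, of which 19 were higher and 14 lower. In the 250 bases before the placed start, 7 cytosines at the upstream edge of this island averaged 25.6% in the ATO library and 15.5% in the control library. At chr10:62350312 the level was 43.9% of 41 reads in the ATO library and 8.51% of 47 reads in the control library, and it was called by Fisher's exact test.

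Shallow cytosines read low at the Dnmt3a starts, lower than the analysed cytosines of the internal promoter island. All listed cytosines of the window at the second upstream start gave 3 methylated of 80 calls (3.75%) in the ATO library and 3 of 22 (13.6%) in the control library, and those at the internal start 4 of 52 (7.69%) in the ATO library and 4 of 61 (6.56%) in the control library.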
